A study of Rattus norvegicus with 12 samples.

Results

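Splicing factor and small nuclear ribonucleoprotein (snRNP) genes were examined in rat C6 glioma xenografts from mice given (R,R')-4-methoxy-1-naphthylfenoterol (MNF) or vehicle. The members were selected by their symbols in the platform annotation (names beginning with Srsf or Sfrs and a digit, Snrp, Sf3a, Sf3b, Hnrnp or Hnrp). The rule itself used no measured values other than detection, though it was chosen with earlier results of these data known. The rule found 35 genes, each with a single probe, and 32 of them had a detection p under 0.02 on at least 6 arrays, the filter that left 9050 features (genes and unnamed probes) for testing. C6 is a glial tumor line of the rat. Its cells were inoculated subcutaneously into female athymic nude mice (SWISS nu+/nu+), so each tumor also held cells of the mouse host. The 6 MNF-treated tumors came from mice injected intraperitoneally with 2 mg/kg MNF, and the 6 vehicle-treated tumors from mice injected with ascorbic acid in saline, 5 days a week for 19 days, starting 3 days after inoculation. Each group held 3 tumors of cohort 2 (numbered 4 to 6) and 3 of cohort 1 (numbered 1 to 3), a second and a first set of animals. Labeled RNA copies (cRNA) made from the total RNA of each tumor were hybridized to a separate array of Illumina's RatRef-12 BeadChips. MNF is a derivative of fenoterol, a β2-adrenergic receptor agonist, and the array comparison asked which tumor transcripts differ after MNF. In cultured C6 cells, the paper reports, a β2 blocker did not prevent the antiproliferative effect of MNF, whereas an inverse agonist of the cannabinoid receptor CB1 reduced it.

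Introns are cut from precursor RNA by the spliceosome, which is assembled from snRNPs. The U1 snRNP pairs with the 5′ splice site, and the U2 snRNP, with its SF3a and SF3b subcomplexes, pairs with the branch point. A ring of Sm proteins holds each of these small nuclear RNAs. SR proteins bind exonic enhancers and mostly favor inclusion of an exon, whereas heterogeneous nuclear ribonucleoproteins (hnRNPs) coat nascent RNA and often oppose it. Most of these genes are expressed in nearly every cell, and in human glioma cells hnRNPA1 and hnRNPA2B1 are known to set the isoform of pyruvate kinase. The arrays measure the amount of each transcript and not splicing itself.

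Values are given as normalized log2 signal intensities. Mean raw signal per array ranged from 500.4 to 858.2 in MNF-treated tumors and from 707.6 to 1062 in vehicle-treated tumors, and MNF-treated tumor 1 had both the lowest signal and the lowest mean correlation with the other arrays (0.961). All 7 of the probed C6 and glial markers, among them Vim, Nes and S100b, were detected on every array, whereas the 2 probed endothelial and 3 probed neuronal markers did not pass the filter. Of 4 probed fibroblast markers 3 were detected on every array (not Dcn), and of 3 probed macrophage markers 2 were (not Aif1). Skeletal muscle transcripts varied widely among tumors. The mean log2 signal of Acta1, Myl1 and Tnnc2 was 14.22, 15.15 and 13 in MNF-treated tumors and 7.73, 13.6 and 13.01 in vehicle-treated tumors of cohort 2, and it was 11.87, 7.89 and 10.28 in MNF-treated tumors and 9.39, 8.72 and 8.99 in vehicle-treated tumors of cohort 1. Of the 8 muscle markers listed, 6 were kept (Actn3 was detected on 0 arrays), with a summed signal of 1263 to 141700 in MNF-treated tumors and 1248 to 56890 in vehicle-treated tumors. Of 4 red cell markers 3 were kept, with a summed signal of 13440 to 77850 in MNF-treated tumors and 7173 to 40170 in vehicle-treated tumors. In such bulk tissue, fewer cells of a type and less RNA per cell cannot be told apart.

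The promoters of 3 members are shown because these genes had the lowest p-values for a difference in the MNF effect between cohorts (given further on): Snrpn, which encodes the Sm protein SmN and is imprinted in mammals, Srsf3, the smallest SR protein, and Hnrnpa3, an hnRNP of the A/B type. Each sequence runs from 250 bases before to 50 bases after the RefSeq gene start (build GRCr8), 5′ to 3′ on the coding strand. Snrpn lies at chr1:120338870-120339169 on the minus strand, Srsf3 at chr20:7093335-7093634 on the plus strand and Hnrnpa3 at chr3:80985684-80985983 on the plus strand. Capitals mark a match, on either strand, to the GC box (GGGCGG), the CCAAT box (CCAAT), the TATA box (TATAAA), the cAMP response element (TGACGTCA) or its core (TGACG), the ETS site (CCGGAAG) or the E-box (CACGTG).
Snrpn: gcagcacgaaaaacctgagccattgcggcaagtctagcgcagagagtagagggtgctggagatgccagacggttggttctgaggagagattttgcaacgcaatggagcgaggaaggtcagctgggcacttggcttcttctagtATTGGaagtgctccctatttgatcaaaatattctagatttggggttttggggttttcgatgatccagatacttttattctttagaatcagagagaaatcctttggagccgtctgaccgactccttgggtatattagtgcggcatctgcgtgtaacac
Srsf3: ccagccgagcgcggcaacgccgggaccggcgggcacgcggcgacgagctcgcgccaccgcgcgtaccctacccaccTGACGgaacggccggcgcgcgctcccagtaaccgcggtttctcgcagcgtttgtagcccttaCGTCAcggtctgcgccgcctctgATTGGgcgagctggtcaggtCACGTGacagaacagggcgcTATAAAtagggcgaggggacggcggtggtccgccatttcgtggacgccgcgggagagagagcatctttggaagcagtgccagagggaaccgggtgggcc
Hnrnpa3: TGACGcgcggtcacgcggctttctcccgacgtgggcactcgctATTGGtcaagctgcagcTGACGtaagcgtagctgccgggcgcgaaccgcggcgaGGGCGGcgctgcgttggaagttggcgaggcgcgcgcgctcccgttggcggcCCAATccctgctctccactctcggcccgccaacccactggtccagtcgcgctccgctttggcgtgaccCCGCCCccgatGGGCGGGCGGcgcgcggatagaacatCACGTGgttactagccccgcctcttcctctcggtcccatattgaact

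All 3 promoters held a CCAAT box, and those of Srsf3 and Hnrnpa3 also had an E-box and the TGACG core in common. That of Srsf3 held 1 TATA box, 1 CCAAT box, 1 E-box and 2 cores of the cAMP response element. That of Hnrnpa3 held 4 GC boxes (of which a pair overlaps), 2 CCAAT boxes, 1 E-box and 2 cores. The Snrpn promoter held a CCAAT box alone, at a GC content of 47.7%, against 68.7% for Srsf3 and 68.3% for Hnrnpa3. RefSeq promoters were matched to 31 of the 32 members (all but Sf3b2), taking the first listed start of a gene. A GC box was found in 67.7% of these 31 promoters and in 34.9% of all 27457 genes' promoters, a CCAAT box in 61.3% and 37.7%, a TATA box in 16.1% and 14.3%, an ETS site in 25.8% and 9.22% and an E-box in 19.4% and 6.65%. The core TGACG, which lies within the full cAMP response element, was found in 45.2% of the members' promoters and 22% of all, and the full element in 0 of the 31 and 1.91% of all. Median GC content was 61.7% for members and 52.3% for all promoters. These are counts of letters in a fixed window at the listed RefSeq start, which was not checked against the start of transcription. The background took all genes and not only detected ones, so the shares are not shown to be particular to these families.

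Nearly all members were detected in the tumors. The filter kept 91.4% of the 35 genes against 48.8% of the 13259 named probes, and 30 members (85.7%) were detected on every array, against 42% of named probes. The exceptions were Snrpc, protein C of the U1 snRNP, with a raw signal of 115.8 to 165 and detection on 0 arrays, Srsf12, an SR protein gene, at 113.8 to 152.8 on 0 arrays, and Snrpd1, the SmD1 core protein, at 130.6 to 173.6 with detection on 1 array, of a vehicle-treated tumor. These 3 had no usable level and were not tested. With 1 probe per gene, a missing transcript and a probe that does not work cannot be told apart. Hnrnpab was detected on 3 MNF arrays and 4 vehicle arrays, and Hnrnpr on 4 MNF arrays and 6 vehicle arrays, both close to background. A probe's brightness also depends on its sequence, so levels were not ranked between genes. Paralogs of these families are close in sequence and the probe sequences were not used here, so cross-hybridization between family members, or from mouse host RNA, was not tested.

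No member differed between MNF-treated and vehicle-treated tumors at the adjusted threshold. Across both cohorts, 0 of 9050 features (0%) and 0 of the 32 members had a Benjamini-Hochberg adjusted p under 0.05 in limma with cohort as a covariate. The smallest adjusted p was 0.616 among members and 0.51 among all features. At an unadjusted p under 0.05 there were 3 members of 32, against a background of 7.92% of features (717). These were Sf3b1, higher in MNF-treated tumors (as were 3.82% of features), and Hnrnpk and Sf3b3, lower (4.1%). Their number was 0 after quantile or neqc normalization or with the muscle score as a covariate, and between 0 and 6 when single tumors were left out (0 without MNF-treated tumor 5, 6 without vehicle-treated tumor 6). The split was even, with 16 members above 0 (55.5% of features) and 16 below, and the members' median log2 difference of 0.006 was beside a median of 0.019 over all features. Estimates ran from -0.24 for Sf3b3 to 0.28 for Sf3b1, and the outermost 95% confidence bounds of any member were -0.47 (Snrpa) and 0.63 (Hnrnpa2b1). The median size of a difference, whatever its sign, was 0.117 for members and 0.0926 for all features.

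**Figure D1:**
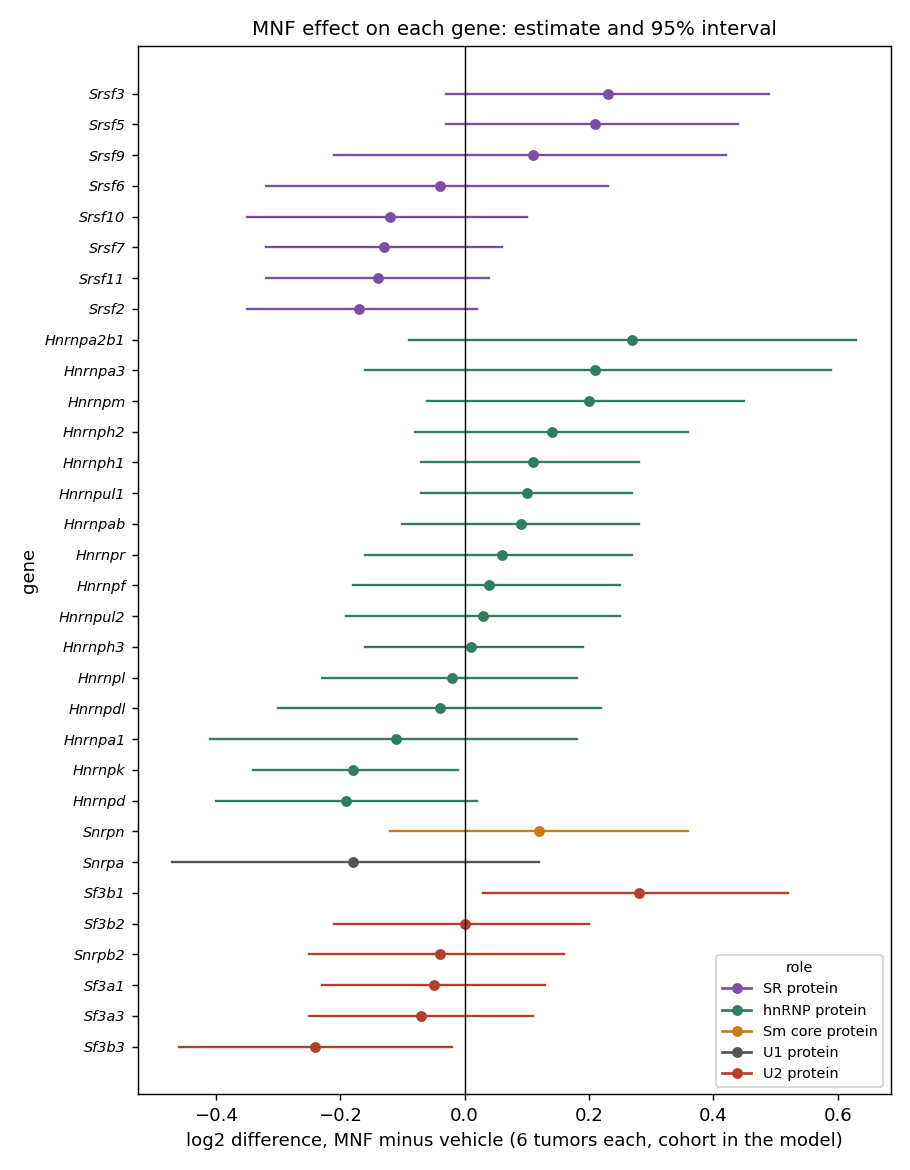
Log2 difference between MNF-treated and vehicle-treated tumors (x axis) for each of the 32 genes (y axis), with points for the estimate, lines for its 95% confidence interval and colors for the role, from the model with cohort as a covariate (6 tumors each). The intervals of Sf3b1, Hnrnpk and Sf3b3 do not span 0, and all estimates lie between -0.24 and 0.28.

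Among the U2 snRNP proteins that the symbol rule holds, 1 of 6 was above 0 and 5 were below for MNF. This split became 3 and 3 under quantile and neqc normalization. Sf3b1, the SF3b subunit that clamps the branch point region and is recurrently mutated in human leukemias, read 8.77, 8.69 and 8.78 in MNF-treated tumors and 8.14, 8.10 and 8.60 in vehicle-treated tumors of cohort 2, and 8.24, 8.64 and 8.43 in MNF-treated tumors and 8.22, 8.35 and 8.48 in vehicle-treated tumors of cohort 1. The treatments separated in cohort 2 and overlapped in cohort 1. The difference over both cohorts was 0.28 ± 0.12 (SE; limma, unadjusted p = 0.031, adjusted p = 0.616), 1.21-fold. With Z-normalization over all probes it was 0.20 (limma, unadjusted p = 0.193). The unadjusted p of Sf3b1 was under 0.05 in 11 of 23 alternative settings. Sf3b3, another SF3b subunit, was lower on average in MNF-treated tumors, reading 10.70, 10.76 and 11.27 in MNF-treated tumors and 11.13, 11.19 and 11.05 in vehicle-treated tumors of cohort 2, and 10.64, 10.90 and 10.73 in MNF-treated tumors and 10.86, 11.09 and 11.10 in vehicle-treated tumors of cohort 1. Its difference was -0.24 ± 0.1 (limma, unadjusted p = 0.0367, adjusted p = 0.616), with MNF-treated tumor 6 the highest of all 12 tumors. The remaining U2 members, Sf3b2, Sf3a1, Sf3a3 and Snrpb2, had estimates from -0.07 (Sf3a3) to 0 (Sf3b2). Phf5a, an SF3b subunit that the symbol rule leaves out, differed by 0.10 (limma, unadjusted p = 0.244).

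Of the U1 proteins among the members, only Snrpa (protein A, which binds a stem loop of U1 RNA) was measured. It read 11.79, 11.56 and 11.75 in MNF-treated tumors and 12.21, 12.31 and 11.36 in vehicle-treated tumors of cohort 2, and 11.69, 11.65 and 11.74 in MNF-treated tumors and 11.73, 11.82 and 11.82 in vehicle-treated tumors of cohort 1. Vehicle-treated tumor 6 was the lowest of the 12 and vehicle-treated tumors 4 and 5 the highest. The MNF difference of Snrpa was -0.18 with a 95% confidence interval of -0.47 to 0.12. Snrnp70, a U1 protein that the symbol rule leaves out, differed by 0.03 ± 0.13 (SE; limma, unadjusted p = 0.854).

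The 8 measured SR genes had a median MNF difference of -0.08, with 3 above 0 and 5 below and 0 at an unadjusted p under 0.05. Srsf3, whose product favors exon inclusion and is tied to proliferation, differed by 0.23 (95% CI -0.03 to 0.49) and Srsf5 by 0.21 (-0.03 to 0.44). Srsf5 read 11.74, 11.76 and 11.64 in MNF-treated tumors of cohort 1, all above the 11.27, 11.35 and 11.56 of its vehicle-treated tumors, whereas in cohort 2 it read 11.49, 11.59 and 11.80 in MNF-treated tumors and 11.27, 11.47 and 11.86 in vehicle-treated tumors. Only the cohort 1 groups were apart. Srsf2, known as SC35 and a marker of nuclear speckles, was lower on average, at -0.17 (-0.35 to 0.02). Srsf6, Srsf7, Srsf9, Srsf10 and Srsf11 lay between -0.14 and 0.11.

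Of the 16 hnRNP genes, 11 were above 0 for MNF and 5 below, with a median of 0.05, though 8 to 10 were above 0 under the other scalings. Hnrnpk, which binds C-rich RNA and DNA, read 10.53, 10.46 and 10.43 in MNF-treated tumors and 10.88, 10.57 and 10.64 in vehicle-treated tumors of cohort 2, and 10.35, 10.55 and 10.46 in MNF-treated tumors and 10.61, 10.55 and 10.60 in vehicle-treated tumors of cohort 1. Every MNF-treated tumor was below every vehicle-treated tumor of its own cohort, though tumor 2 of each group differed by less than the rounding of these values. Hnrnpk was the 1 member of 32 with this pattern in both cohorts, which 0.541% of all features showed in the lower direction. No member (0) showed it in the higher direction, against 0.475% of features. The separation of Hnrnpk was lost under quantile and neqc normalization. The Hnrnpk difference was -0.18 ± 0.077 (SE; limma, unadjusted p = 0.0353, adjusted p = 0.616), 0.883-fold. It was -0.10 with the muscle score as a covariate. Hnrnpd, or AUF1, which binds AU-rich elements of short-lived mRNAs, averaged 10.64 ± 0.17 in MNF-treated tumors and 10.83 ± 0.16 in vehicle-treated tumors (SD, n = 6 each), a difference of -0.19 (95% CI -0.40 to 0.02).

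Hnrnpm, which binds GU-rich RNA, averaged 12.24 ± 0.26 in MNF-treated tumors and 12.04 ± 0.21 in vehicle-treated tumors (SD, n = 6 each). Its difference of 0.20 had a 95% confidence interval of -0.06 to 0.45 and was 0.10 without MNF-treated tumor 1. Hnrnpa2b1, which carries RNA along processes of oligodendrocytes, had the widest range of all members. It reached 12.31 in MNF-treated tumor 1 and lay between 11.02 and 11.76 in the other 11 tumors. The probes with the brightest signal, Hnrnpf and Hnrnpl, whose products bind G runs and CA repeats, had close averages. Hnrnpf averaged 13.13 ± 0.2 in MNF-treated tumors and 13.10 ± 0.11 in vehicle-treated tumors, and Hnrnpl averaged 12.94 ± 0.1 in MNF-treated tumors and 12.97 ± 0.21 in vehicle-treated tumors (SD, n = 6 each).

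**Figure D2:**
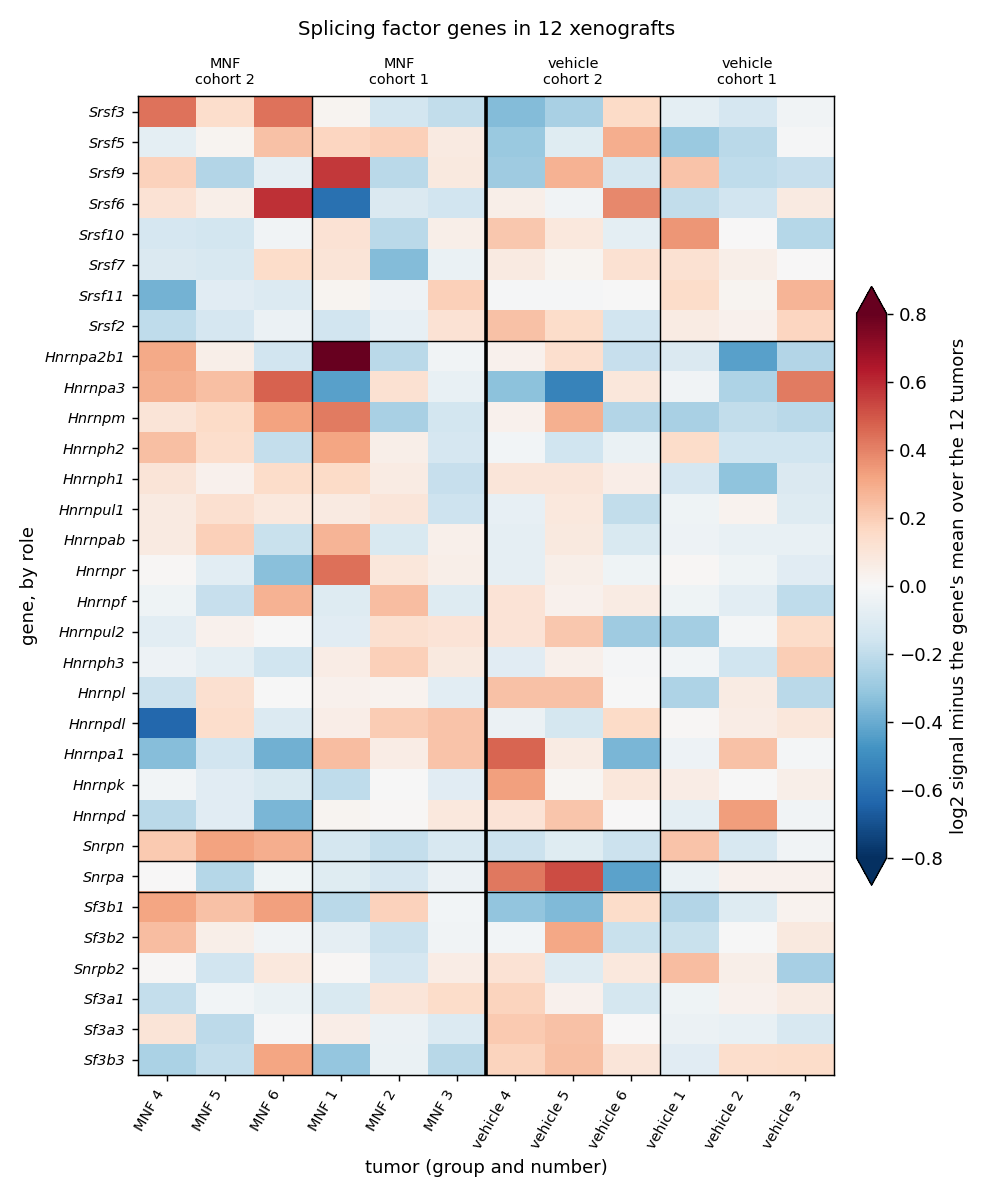
Normalized log2 signal of each of the 32 genes (rows, by role) in each of the 12 tumors (columns), minus the gene's mean over the 12 tumors. Blue is below and red above that mean, and the scale is clipped at 0.8 on either side. MNF-treated tumor 1 stands out for Hnrnpa2b1 (12.31), and Snrpn is above its mean in the 3 MNF-treated tumors of cohort 2.

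The cohorts were then read apart, since a difference that held in a single cohort would be diluted in the joint model. In cohort 2, 5 members had an unadjusted p under 0.05 (15.6%, against 9.54% of all features), 4 higher in MNF-treated tumors (Snrpn, Srsf3, Sf3b1 and Hnrnpa3, where 4.64% of features were) and 1 lower (Hnrnpd, 4.9%). The count in cohort 2 was 4 to 8 when single tumors were left out (8 without vehicle-treated tumor 6). In cohort 1, 0 members did so, against 8.36% of features, but the count was 3 with Z-normalization over all probes, 2 with quantile normalization, 1 with median centring or with that cohort fitted alone, and 0 to 2 when single tumors were left out (2 without MNF-treated tumor 3 and 1 without MNF-treated tumor 2 or 6 or vehicle-treated tumor 3, 4 or 6). No feature had an adjusted p under 0.05 in either cohort (0 of 9050, 0%, in limma). The members' median MNF difference was -0.049 in cohort 2 (all features -0.005) and 0.043 in cohort 1 (all features 0.03), where it was -0.05 with Z-normalization over all probes. Group separation in cohort 2 was seen for Hnrnpa3, Sf3b1 and Snrpn in the higher direction (6.28% of features) and for Hnrnpd, Hnrnpk and Srsf11 in the lower direction (6.6%). In cohort 1 it was seen for Srsf5 and Hnrnpr in the higher direction (10.4%) and for Hnrnpk in the lower direction (6.71%).

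Snrpn gave the lowest p of all members for a difference between the cohorts' MNF effects. It read 11.46, 11.57 and 11.54 in MNF-treated tumors and 11.08, 11.15 and 11.08 in vehicle-treated tumors of cohort 2, against 11.11, 11.06 and 11.12 in MNF-treated tumors and 11.48, 11.12 and 11.22 in vehicle-treated tumors of cohort 1. The groups did not overlap in cohort 2, and vehicle-treated tumor 1 was the single high value outside it. The MNF effect was 0.42 ± 0.11 in cohort 2 and -0.17 ± 0.11 in cohort 1 (SE), and the effects differed by 0.59 (95% CI 0.26 to 0.93; limma interaction, unadjusted p = 0.00225, adjusted p = 0.526). Without vehicle-treated tumor 1 this difference was 0.49. The muscle score was 14.22, 15.15 and 13 in the MNF-treated tumors and 7.73, 13.6 and 13.01 in the vehicle-treated tumors of cohort 2, and its part in the Snrpn values was not tested.

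Hnrnpa3 read 12.46, 12.42 and 12.65 in MNF-treated tumors and 11.85, 11.64 and 12.27 in vehicle-treated tumors of cohort 2, against 11.74, 12.30 and 12.12 in MNF-treated tumors and 12.15, 11.93 and 12.59 in vehicle-treated tumors of cohort 1. Its MNF effect was 0.59 ± 0.2 in cohort 2 and -0.17 ± 0.2 in cohort 1 (SE), differing by 0.76 (95% CI 0.14 to 1.39; limma, unadjusted p = 0.0206, adjusted p = 0.526). Srsf3 read 8.99, 8.70 and 8.99 in MNF-treated tumors and 8.21, 8.30 and 8.71 in vehicle-treated tumors of cohort 2, against 8.58, 8.41 and 8.36 in MNF-treated tumors and 8.48, 8.42 and 8.53 in vehicle-treated tumors of cohort 1. Its effects, 0.49 ± 0.14 in cohort 2 and -0.03 ± 0.14 in cohort 1, differed by 0.52 (95% CI 0.08 to 0.95; limma, unadjusted p = 0.023, adjusted p = 0.526). These 3 genes were all the members with an unadjusted interaction p under 0.05 (9.38% of members, against 9.34% of features), a share near the background. The count was 1 to 6 when single tumors were left out (1 without vehicle-treated tumor 5, 6 without vehicle-treated tumor 6). All 3 had a higher MNF effect in cohort 2, as did 4.7% of features at such a p. The adjusted calls numbered 0 of 9050 (0%).

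**Figure D3:**
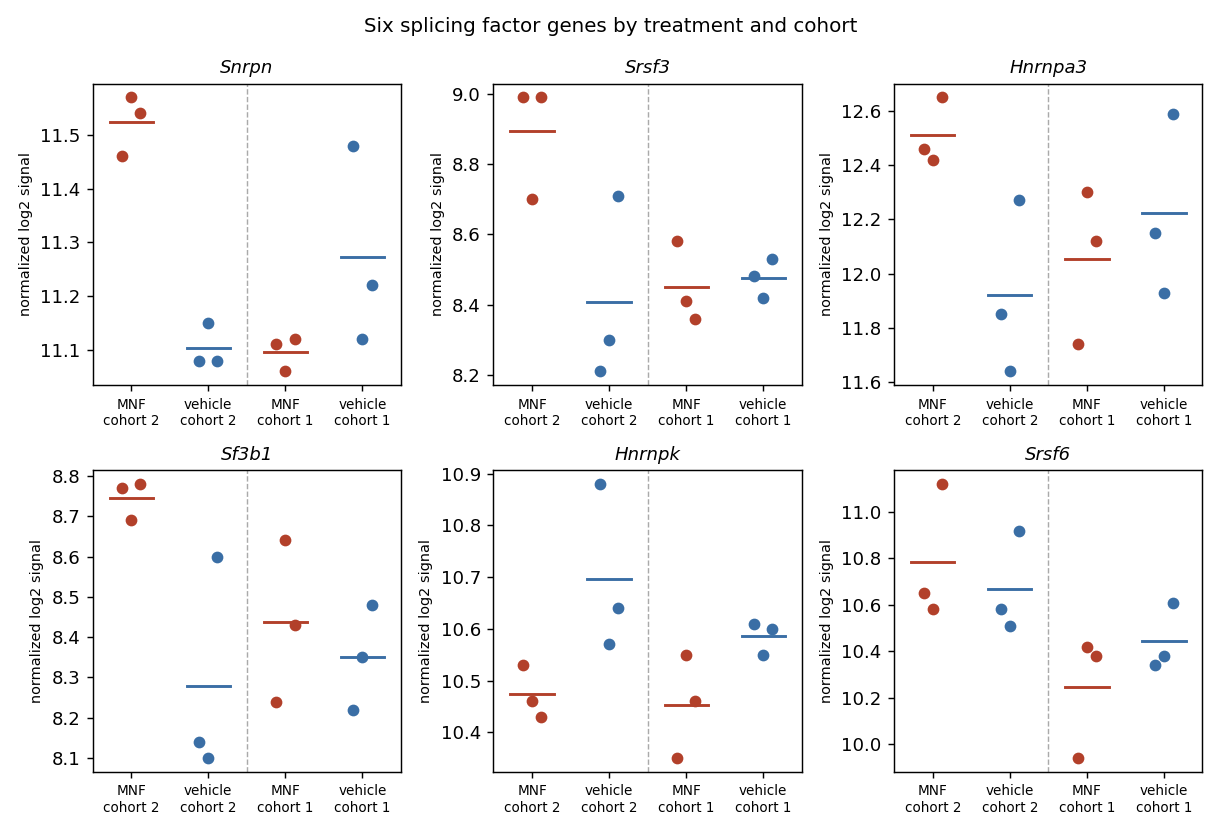
Normalized log2 signal (y axis, which differs between panels and does not start at 0) of 6 genes in MNF-treated (red) and vehicle-treated (blue) tumors of cohort 2 and cohort 1, with a point per tumor and a bar for the group mean (n = 3). In cohort 2 the MNF-treated points of Snrpn, Hnrnpa3 and Sf3b1 lie above the vehicle-treated points. Those of Hnrnpk lie below within each cohort, except that tumor 2 of each group reads 10.55, a tie at this rounding.

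At the other end were Hnrnpa1 and Hnrnpr. Hnrnpa1, an exon-skipping factor, read 9.28, 9.47 and 9.24 in MNF-treated tumors and 10.09, 9.69 and 9.26 in vehicle-treated tumors of cohort 2, against 9.87, 9.68 and 9.85 in MNF-treated tumors and 9.58, 9.86 and 9.61 in vehicle-treated tumors of cohort 1. The MNF effects were -0.35 in cohort 2 and 0.12 in cohort 1, and their difference of -0.47 had a 95% confidence interval of -1.01 to 0.08 and was -0.26 without vehicle-treated tumor 4. For Hnrnpr, which was not detected on every array, the difference was -0.35 (-0.74 to 0.04), or -0.19 with Z-normalization over all probes. Over all members the median interaction was -0.11, beside -0.047 over all features, with 10 of 32 members above 0, against 43.8% of features.

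Vehicle-treated tumor 6 weighed on the cohort 2 values. For Srsf3, Sf3b1, Hnrnpa3 and Hnrnpa1 it lay nearest to, or among, the MNF-treated tumors of its cohort, and its mean of 6 proliferation genes (Aurkb, Bub1b, Ccnb2, Cdk1, Kif20a and Mki67) was 10.29, against 10.94 and 10.97 in vehicle-treated tumors 4 and 5 and 10.31, 10.32 and 10.29 in the MNF-treated tumors of the cohort. Without it, the fit called 159 features for MNF in cohort 2 (1.76%), among them 3 members. Srsf3 then differed by 0.64 (limma, adjusted p = 0.0377), Sf3b1 by 0.63 (adjusted p = 0.0449) and Snrpa by -0.56 (adjusted p = 0.0379). Hnrnpa3 (0.77, adjusted p = 0.0764) and Snrpn (0.41, adjusted p = 0.109) did not pass. The fit then rests on vehicle-treated tumors 4 and 5 alone for its controls in that cohort, and the labels give no ground to drop tumor 6. Of the 12 fits that each left out 1 tumor, this one gave the most calls for MNF in cohort 2. Its adjusted p-values do not account for that choice, and leaving out a control near the MNF-treated values widens a difference by construction. The part of proliferation in these values was not tested.

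**Figure D4:**
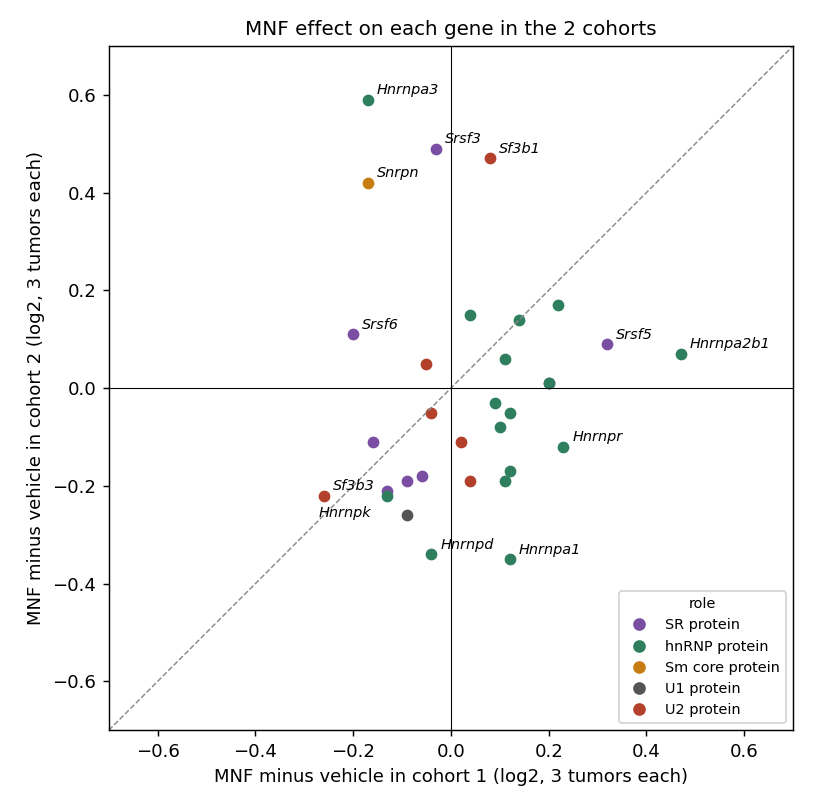
MNF effect on each of the 32 genes in cohort 2 (y axis, log2) against cohort 1 (x axis, log2), 3 tumors per treatment and cohort, with colors for the role. The dashed line marks equal effects, and Hnrnpa3, Srsf3, Snrpn and Sf3b1 stand above it (0.59, 0.49, 0.42 and 0.47 in cohort 2).

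Between the cohorts, whatever the treatment, 0 of 9050 features (0%) passed the adjusted threshold and 3 members had an unadjusted p under 0.05, against 7.16% of features, 2 of them higher in cohort 2 (3.48% of features) and 1 lower (3.68%). The count was 6 with array weights and 1 to 4 when single tumors were left out (1 without MNF-treated tumor 3 or 4 or vehicle-treated tumor 3). Srsf6, an SR protein, read 10.65, 10.58 and 11.12 in MNF-treated tumors and 10.58, 10.51 and 10.92 in vehicle-treated tumors of cohort 2, against 9.94, 10.42 and 10.38 in MNF-treated tumors and 10.34, 10.38 and 10.61 in vehicle-treated tumors of cohort 1. Vehicle-treated tumor 3 was the only tumor of cohort 1 above the lowest of cohort 2, and cohort 2 was higher by 0.38 on average (95% CI 0.10 to 0.66; limma, unadjusted p = 0.0108, adjusted p = 0.591). Hnrnph1, which binds G runs, was 0.18 higher in cohort 2 (95% CI 0.00 to 0.36) and Srsf11 differed by -0.20 (-0.38 to -0.03). Hnrnpdl and Hnrnpa1 differed by -0.21 and -0.24, with intervals that span 0. Without MNF-treated tumor 4 the Hnrnpdl value was -0.10, and with the muscle score as a covariate the Hnrnpa1 value was -0.02.

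The cohorts were also compared within each treatment. Among MNF-treated tumors, 8 members had an unadjusted p under 0.05 (25%, against 15% of features), namely Snrpn, Srsf3, Srsf6 and Hnrnpa3, higher in cohort 2 (6.41% of features), and Hnrnpa1, Hnrnpr, Hnrnpdl and Srsf11, lower (8.61%). Single tumors decided this count, which was 3 without MNF-treated tumor 6, 4 without MNF-treated tumor 1, 3 or 4 and 5 without vehicle-treated tumor 1. Among vehicle-treated tumors 2 did, Hnrnph1 and Hnrnpl, against 3.85% of features, and both were higher in cohort 2 (1.97%). That count was 1 with Z-normalization over all probes or median centring, and 0 to 5 when single tumors were left out (1 without vehicle-treated tumor 1, 2 or 3, 0 without vehicle-treated tumor 4 or 5 and 5 without vehicle-treated tumor 6). The adjusted calls were 0 of 9050 (0%) in both. The muscle score moved with the contrast under MNF, at 13 to 15.15 in the MNF-treated tumors of cohort 2 and 7.89 to 11.87 in those of cohort 1, and its part in the members' values was not tested within this contrast.

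The members did not vary as a unit. After removal of the 4 group means, the 496 pairs of members had a median correlation of -0.00446 over the 12 tumors, beside 0.00504 for all pairs of features, and 1.41% of member pairs exceeded 0.8, against 1.48% of all pairs. The closest pairs were Sf3a1 with Srsf2 (0.87) and Hnrnpa2b1 with Hnrnpr (0.869), whereas Hnrnpdl and Sf3a3 were the most opposed (-0.884). All pairs share the same 12 arrays, so these values are descriptive. The median residual SD was 0.163 for members and 0.18 for all features.

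A wider list of 107 spliceosome and splicing-related genes that the symbol rule leaves out, of which 82 were tested, gave 0 adjusted calls for MNF. Of these, 5 were higher and 7 lower at an unadjusted p under 0.05 (14.6%, against 7.92% of features), with a median of 0.022. The lowest p belonged to Prmt5, the methyltransferase that modifies Sm proteins, at 10.10 ± 0.22 in MNF-treated tumors and 10.50 ± 0.2 in vehicle-treated tumors (SD, n = 6 each), a difference of -0.39 (limma, adjusted p = 0.572). Over the 82 genes the MNF difference ranged from that value to 0.37 for Prpf19, a ubiquitin ligase of the spliceosome.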

How the data were processed

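Labeled cRNA made from total RNA of 12 xenografts was hybridized to Illumina RatRef-12 arrays, 6 per treatment and 3 per treatment and cohort. The deposited table gives, for 22517 probes per array, the signal intensity without normalization and the p-value of detection, as the authors exported them from GenomeStudio (1.6.0 per the submitters' processing notes). A second deposited table holds Z scores by the authors, used here as an alternative. Z scores computed from the log10 signal of every probe differed from them by at most 0.0124. Probes were named from the platform annotation (13259 with 1 symbol, 9258 unnamed here). Probes with a detection p under 0.02 on at least 6 arrays were kept (9121). In a modified form of the paper's Z-normalization (the authors' scores used every probe, here an alternative), log2 signals of each array were centred and scaled on the 7677 probes detected on every array, multiplied by the mean SD, and shifted by a constant (9.6446) back to log2 signal. The brightest probe stood for a gene, leaving 9050 features. No floor was needed (lowest signal 60.1).

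MNF and cohort effects came from limma (version 3.58.1, under R 4.3.3), with treatment and cohort as terms, and effects within cohorts, with their difference, from a model of 4 groups. p-values were adjusted by Benjamini-Hochberg over all 9050 features (threshold 0.05), and the fits were tested on simulated data. The number of arrays limits the precision. Genes named in the text were those with the lowest p per contrast and direction, those whose tumors separated in both cohorts, Snrpn and the brightest probes. Others were added after their values were seen. The members and lists were chosen with earlier results of these data known. The labels state no pairing by replicate number, and the main fits used none. Of the same-numbered pairs, 1 of 6 correlated above 0.1 (range -0.148 to 0.406). Alternatives were other normalizations, detection filters, array weights, a muscle covariate and leaving out each tumor.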

Additional observations from a re-analysis of the deposited data

Results flagged for a closer look

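In 5 of 64 groups of 6 tumors 1 tumor stood far from the others, by its gap over the range, where chance gives about 1 in 20. MNF-treated tumor 3 was low for Hnrnpul1 (8.38, next 8.62) and for Hnrnph1 (11.38, next 11.60). Vehicle-treated tumor 4 was high for Hnrnpk (10.88, next 10.64), vehicle-treated tumor 1 for Snrpn (11.48, next 11.22) and vehicle-treated tumor 5 for Hnrnpab (7.47, next 7.35), a gene near background.

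The MNF effect differed between cohort 2 and cohort 1 at an unadjusted interaction p under 0.05 in limma for Snrpn by 0.59 (unadjusted p = 0.00225), for Hnrnpa3 by 0.76 (0.0206) and for Srsf3 by 0.52 (0.023), each with an adjusted p = 0.526. Their MNF-treated tumors of cohort 2 were higher than those of cohort 1 on average, a comparison that the interaction contains and not a separate result.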

How the results depend on the processing

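Of the values set against an alternative, 839 stayed on their side of the threshold or within the tumors' spread and 61 moved. No gene named by the rule changed sign (0), but member medians did. The members' median log2 difference became -0.05 (MNF in cohort 1, 0.043 at first) and -0.071 (difference of the MNF effects) with Z-normalization over all probes, -0.052 (cohorts within MNF-treated tumors) with quantile normalization, and -0.097 (MNF in cohort 2), -0.168 (difference of the MNF effects) and -0.046 (cohorts within MNF-treated tumors) with median centring. Counts of features at an adjusted p under 0.05, all 0 at first, became 42 (array weights) and 1 (muscle covariate) for the cohorts and 1 for MNF in cohort 1 fitted alone, none of them members. Members separated in both cohorts, the count added after the data were seen, numbered 0 of 32 with quantile and neqc normalization. With array weights the MNF difference was 0.12 for Srsf3 and -0.08 for Srsf2, and with the muscle covariate the cohort difference was 0.11 for Hnrnpm and 0.03 for Srsf3. Under other scalings the median log2 difference over all features was -0.041 to 0.04.

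Leaving out single tumors gave 0 to 66 features for the cohorts (66 without vehicle-treated tumor 4), 0 to 1 for MNF in cohort 1 (1 without vehicle-treated tumor 4), 0 to 159 for MNF in cohort 2 and 0 to 37 for the difference of the MNF effects (159 and 37 without vehicle-treated tumor 6), and 0 to 1 for the cohorts within MNF-treated tumors (1 without MNF-treated tumor 2). Members called numbered 0 to 3 for MNF in cohort 2 and 0 elsewhere. Member medians ran 0.003 to 0.07 (MNF in cohort 1), -0.174 to -0.053 (difference of the MNF effects) and -0.004 to 0.087 (cohorts within vehicle-treated tumors). The causes were not tested.

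With the replicate number as a block in place of cohort, 0 features passed for MNF, the members' median stayed 0.006 and 2 members had an unadjusted p under 0.05. The labels state no pairing by number. Of 6 same-numbered pairs, 3 correlated best with their own number, and so few pairs cannot show or exclude a pairing. Each member had 1 probe, so no other probe was tried.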
